A study of Arabidopsis thaliana with 6 samples.

Results

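The miRNAs miR397, miR398, miR408 and miR857, known as the copper miRNAs of plants, were examined in small RNA libraries of Arabidopsis thaliana seedlings. Their members were every entry of the deposited tables whose miR number is exactly that of 1 of these 4 families, which gave 9 of the 197 entries. These 9 entries hold 11 of the 242 mature names listed, because 2 of them join the identical products of MIR398b and MIR398c. The libraries came from 14-day-old whole seedlings of 2 genotypes with 3 biological replicates each, the mutant aar2-1 and the wild type (WT). Both genotypes were grown on MS medium at 0.5 strength with 16 h of light and 8 h of dark. The labels name aar2-1 by its allele alone and give neither its lesion nor the accession of the seedlings. AAR2 proteins of yeast and animals take part in the assembly of a spliceosomal particle. The study compared the genotypes to ask how small RNA accumulation differs in aar2-1.

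Copper miRNAs are made when copper is scarce. The transcription factor SPL7 then binds GTAC motifs upstream of their genes, and the miRNAs direct the loss of mRNAs for copper proteins that the plant can spare, which leaves copper for plastocyanin in photosynthesis. miR398 targets the copper/zinc superoxide dismutases CSD1 and CSD2 and their copper chaperone CCS. miR397 and miR857 target laccases, copper oxidases that polymerise lignin, and miR408 targets laccases and plantacyanin. A hairpin precursor yields a duplex of a 5p and a 3p strand. In the hairpins of miR398 and miR408 the 3p strand is the known guide.

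The mature sequences are shown because the entries are separated by them, and some differ by a single base. They were read from the TAIR10.1 assembly of RefSeq, in which all 11 names were found, and are written 5′ to 3′ with the seed, bases 2 to 8, in capitals.
miR398b-3p and miR398c-3p: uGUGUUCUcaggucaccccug
miR398a-3p: uGUGUUCUcaggucaccccuu
miR398b-5p and miR398c-5p: aGGGUUGAuaugagaacacac
miR398a-5p: aAGGAGUGgcaugugaacaca
miR408-3p: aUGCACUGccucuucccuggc
miR408-5p: aCAGGGAAcaagcagagcaug
miR397a: uCAUUGAGugcagcguugaug
miR397b: uCAUUGAGugcaucguugaug
miR857: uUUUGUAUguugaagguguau

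The 3 miR398 guides share 1 seed and the 2 miR397 guides share another, and the remaining guides each have their own. Counted from 1 at the 5′ end, miR398a-3p differs from miR398b-3p by G21U alone, and miR397b differs from miR397a by G13U alone. Compared base by base from the 5′ end without alignment, the passenger strand miR398a-5p differs from miR398b-5p at 17 positions. That count does not allow for a shift in where the strands begin, so it does not measure how alike they are. All 11 copper miRNAs are 21 nucleotides long, against 77.3% of the 242 listed names, and 6 of the 11 begin with U, against 62.4% of the listed names. The sequences of miR398b and miR398c each match the 5 chromosomes at 2 places, 1 per gene, so their reads cannot be divided between the genes. The other 7 sequences match at 1 place.

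The genes lie on 3 chromosomes (TAIR10.1, positions from 1). MIR398a is at chr2:1040938-1041042 and MIR408 at chr2:19319814-19320031, both on the plus strand. MIR397a is at chr4:2625950-2626056 on the plus strand. MIR857 at chr4:7878185-7878561 and MIR397b at chr4:7878652-7878760 both lie on the minus strand, with 90 bases between them. MIR398b at chr5:4691022-4691137 and MIR398c at chr5:4694694-4694808 lie on the plus strand, 3556 bases apart. No precursor overlaps another gene on its own strand. On the opposite strand, MIR397a overlaps ENT6, MIR398b overlaps AT5G14550 and MIR408 overlaps AT2G47020. Whether the authors counted by strand is not given in the sources used here, so reads from those genes cannot be told apart from the miRNA's where they have the same sequence on either strand.

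Abundance is given in RPM, reads per 1000000 of a library total that the values imply, which was 11524176, 7062198 and 8806224 reads in aar2-1 replicates 1 to 3 and 9371906, 9754859 and 8505555 reads in WT replicates 1 to 3. Values of 3 libraries are listed below in that order of replicates. All listed miRNAs together made up 1.84% to 2.77% of the total in aar2-1 and 4.63% to 5.31% in WT. Listed miRNAs as a whole were thus a smaller share of the total in aar2-1, and the copper values are set beside that shift. Entries with a mean of at least 1 RPM were tested with limma on log2(RPM + 1), with Benjamini-Hochberg adjustment over all 131 tested entries. Of these, 61.1% passed an adjusted p of 0.05 as lower in aar2-1 and 2.29% as higher.

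In RPM as deposited, the abundant copper guides fell in aar2-1, and the fall of miR408-3p alone also passed under both other scalings given further on. Of the 9 entries, 8 were tested, and 5 of these passed as lower, 0 as higher and 3 in neither direction. This is 2 of 2 miR398 guide entries, 1 of 2 miR398 passenger entries and both arms of miR408. The 3 that did not pass were the miR398b-5p/miR398c-5p passenger entry, miR397b and miR857. Their share of lower calls is close to the 61.1% of all entries. Of the 8, 6 had all aar2-1 values below all WT values, as did 59.5% of all entries. Their median log2 change of -0.86 stood beside a median of -0.83 over all 131 entries. RPM is a share of a library total whose content is not given, so a fall in RPM need not be a fall in amount. In whole seedlings, fewer cells that make a miRNA and less of it per cell cannot be told apart either.

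**Figure D1:**
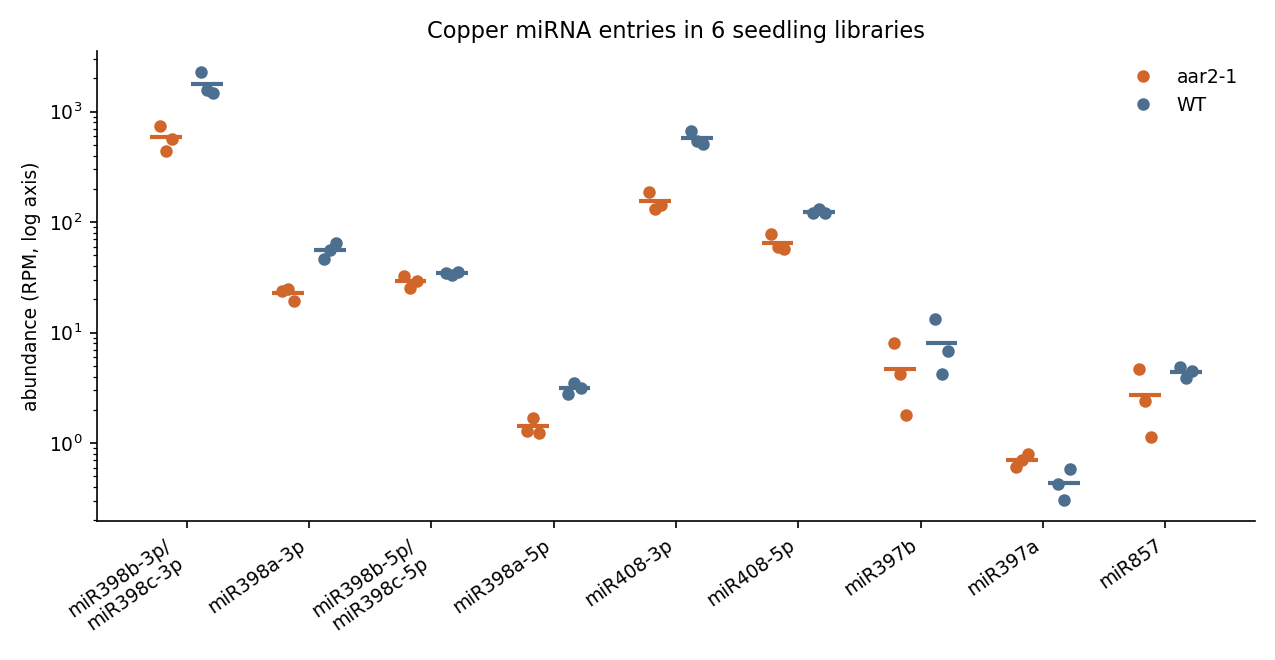
Abundance in RPM on a log axis for each copper miRNA entry, with 1 point per library and a bar at the mean of the 3 libraries of a genotype. In RPM as deposited, the aar2-1 points lie below the WT points for the miR398 and miR408 entries, overlap with them for miR397b and miR857, and lie above them for miR397a, at under 1 RPM.

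The guide shared by MIR398b and MIR398c was the most abundant copper miRNA and ranked 7 of 197 entries by mean. The miR398b-3p/miR398c-3p entry had 739.9, 444 and 568 RPM in aar2-1, against 2279, 1585 and 1471 RPM in WT. The highest aar2-1 library stood below the lowest WT library, and the entry was 3.04-fold lower, at 584 ± 148 RPM in aar2-1 and 1778 ± 438 RPM in WT (SD, n = 3 each). Its log2 change was -1.61 (SE 0.26, limma adjusted p 0.000105). The miR398a-3p entry, the guide from the third gene, had 23.6, 24.9 and 19.5 RPM in aar2-1, against 46.6, 55.5 and 65.1 RPM in WT. Here too the genotypes did not overlap, and the entry was 2.46-fold lower (log2 change -1.25, SE 0.30, limma adjusted p 0.00233).

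The passenger strands of miR398 behaved less uniformly. The miR398b-5p/miR398c-5p entry had 32.4, 25.2 and 29.6 RPM in aar2-1, against 34.6, 33.5 and 35.3 RPM in WT. Its values did not overlap between genotypes, yet they were near each other, at 29.1 ± 3.61 RPM in aar2-1 and 34.5 ± 0.880 RPM in WT. The log2 change was -0.24 with a 95% interval from -0.88 to 0.39 and did not pass (limma adjusted p 0.455). The miR398a-5p entry was scarce, with 15, 12 and 11 reads in aar2-1 and 26, 34 and 27 reads in WT. It had 1.30, 1.70 and 1.25 RPM in aar2-1, against 2.77, 3.49 and 3.17 RPM in WT. All aar2-1 values lay below all WT values, and it was 2.22-fold lower (log2 change -0.78, SE 0.23, limma adjusted p 0.00958). At this level the log2(RPM + 1) scale understates a change.

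miR408 comes from a single gene, and both of its strands fell. The miR408-3p entry, the guide for plantacyanin and laccase mRNAs, had 188, 131 and 144 RPM in aar2-1, against 669, 539 and 513 RPM in WT. The genotypes were far apart, at 154 ± 29.8 RPM in aar2-1 and 574 ± 83.5 RPM in WT (SD, n = 3 each), 3.72-fold lower. The log2 change of -1.90 (SE 0.27, limma adjusted p 4.01e-05) was the largest decrease among the copper entries and ranked 12 from the lowest of 131 tested entries. The miR408-5p entry had 78.4, 59.0 and 57.3 RPM in aar2-1, against 121, 132 and 121 RPM in WT. It was 1.92-fold lower without overlap (log2 change -0.94, SE 0.29, limma adjusted p 0.0112).

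The laccase-targeting miRNAs miR397 and miR857 were scarce, and neither passed the test. The miR397b entry had 8.07, 4.25 and 1.82 RPM in aar2-1, against 13.3, 4.20 and 6.82 RPM in WT. The genotypes overlapped, and the spread within each was wide, at 4.71 ± 3.15 RPM in aar2-1 and 8.12 ± 4.70 RPM in WT. Its log2 change was -0.71 with a 95% interval from -1.60 to 0.19 (limma adjusted p 0.141), so a fall as large as that of miR398a-3p was not excluded by the interval. Without aar2-1 replicate 1 the log2 change was -1.12 and passed (limma adjusted p 0.0198), and without WT replicate 2 it was -1.05 and passed (limma adjusted p 0.0148). Without aar2-1 replicate 3 it was -0.28, and without WT replicate 1 it was -0.32.

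The miR857 entry had 4.69, 2.41 and 1.14 RPM in aar2-1, against 4.91, 3.90 and 4.47 RPM in WT, on 54, 17 and 10 reads in aar2-1 and 46, 38 and 38 reads in WT. Replicate 1 of aar2-1 lay within the WT range and replicates 2 and 3 below it, whereas the WT libraries lay close together. The log2 change was -0.64 with a 95% interval from -1.33 to 0.04 (limma adjusted p 0.0897). Without aar2-1 replicate 1 the entry passed, at -1.003 (limma adjusted p 0.00487), and without aar2-1 replicate 3 the change was -0.30.

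The miR397a entry was close to the limit of detection and was not tested, since its mean over the 6 libraries was 0.572 RPM. It had 7, 5 and 7 reads in aar2-1, or 0.607, 0.708 and 0.795 RPM, against 4, 3 and 5 reads in WT, or 0.427, 0.308 and 0.588 RPM. It is the only copper entry whose mean was higher in aar2-1, and its 3 values there all lay above those of WT. Of the tested entries, 2.29% had all aar2-1 values above WT. With no filter on low values its log2 change was 0.24 and did not pass (limma adjusted p 0.180).

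**Figure D2:**
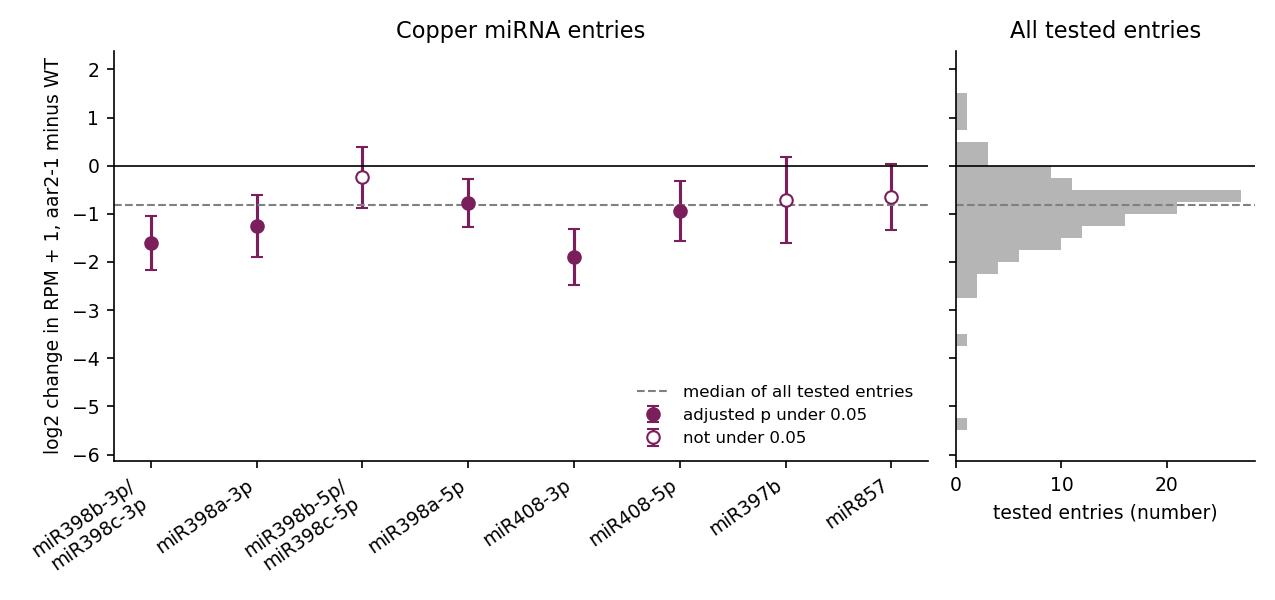
Left, the log2 change in RPM + 1, aar2-1 minus WT, of the 8 tested copper entries with 95% intervals, filled where the limma adjusted p was under 0.05. Right, the number of all 131 tested entries at each log2 change. The dashed line is the median of all entries at -0.83, and miR408-3p at -1.90 and miR398b-3p/miR398c-3p at -1.61 lie furthest below it.

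Other scalings showed which of these falls exceeded the shift that each scaling removes. When each library was divided by its median ratio over abundant entries, the median log2 change of all 131 entries moved up by 0.73, and when values were taken as a share of all listed miRNA reads it moved up by 0.91. The share is weighted towards the most abundant families, miR159 and miR158, whose log2 changes in RPM as deposited were -1.19 and -0.88. The calls over all entries, 80 lower and 3 higher as deposited, became 35 lower and 19 higher with the median ratio (26.7% and 14.5% of all entries) and 17 lower and 22 higher as shares (13% and 16.8%). The miR408-3p entry still passed as lower in both, at -0.95 (limma adjusted p 0.000276) and -0.70 (limma adjusted p 0.00623). The miR398b-3p/miR398c-3p entry passed at -0.66 with the median ratio (limma adjusted p 0.00600) and did not pass at -0.40 as a share (limma adjusted p 0.104). The miR398a-3p entry passed in neither, at -0.33 and -0.08. The miR398b-5p/miR398c-5p passenger entry turned to higher in aar2-1 and passed in both, at 0.68 (limma adjusted p 0.0251) and 0.93 (limma adjusted p 0.00618). The miR408-5p entry lost its call with the median ratio, at -0.0013, and stood at 0.25 as a share. The miR398a-5p entry likewise lost its call, at -0.13 and 0.04, while miR397b and miR857 were above 0 in both.

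The sum of the 9 copper entries followed the same course. It was 1077, 694 and 824 RPM in aar2-1, against 3172, 2357 and 2220 RPM in WT. The genotypes did not overlap, and the mean was 2.99-fold lower, at 865 ± 195 RPM in aar2-1 and 2583 ± 515 RPM in WT. As a share of all listed miRNA RPM, the sum was 3.89%, 3.34% and 4.47% in aar2-1, against 5.97%, 5.09% and 4.20% in WT. These shares overlapped, with means of 3.90% ± 0.566 in aar2-1 and 5.09% ± 0.884 in WT. The miR398b-3p/miR398c-3p entry made up 67.3% ± 2.77 of the copper sum in aar2-1 and 68.5% ± 2.99 in WT, and without it the sum was 2.87-fold lower. No p is given for these sums, since the members were chosen together.

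**Figure D3:**
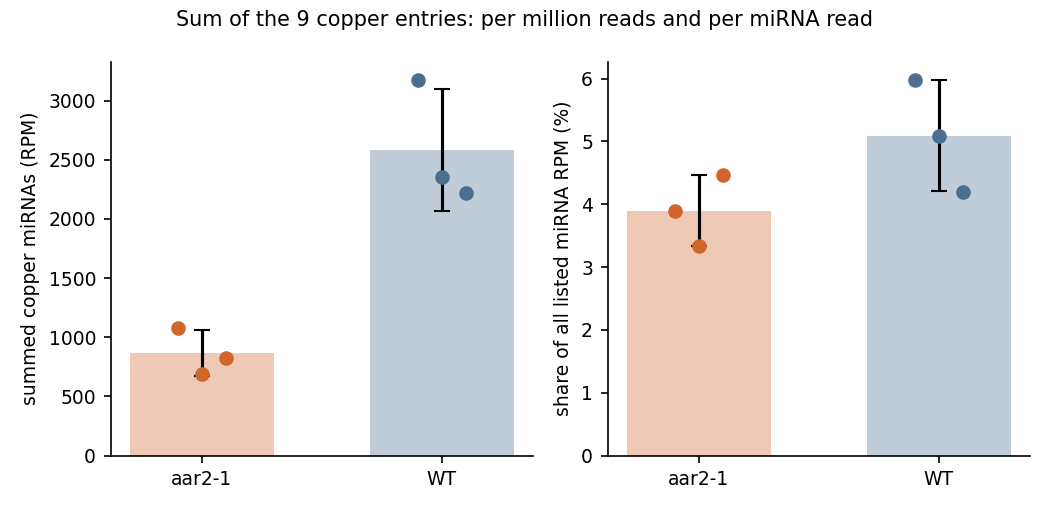
Sum of the 9 copper entries in each library, in RPM on the left and as a percentage of the RPM of all listed miRNAs on the right, with bars at the mean and error bars of 1 SD (n = 3). The RPM sums of aar2-1 lie below those of WT, from 694 to 1077 against 2220 to 3172, while the shares of the genotypes overlap.

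Whether the strands of a hairpin changed alike was asked with the ratio of its 3p to its 5p strand, which does not depend on how a library is scaled. The ratio fell in 2 of the 3 copper hairpins with both strands listed. For miR398b and miR398c together there were 22.9, 17.6 and 19.2 guide reads per passenger read in aar2-1, against 65.9, 47.3 and 41.7 in WT. Every aar2-1 library was below every WT library, and the ratio was 2.60-fold lower on average. For miR408 the ratio was 2.40, 2.22 and 2.51 in aar2-1, against 5.54, 4.09 and 4.25 in WT. This was 1.95-fold lower, again without overlap, and the passenger strand made up 29.7% ± 1.30 of the hairpin's reads in aar2-1 and 18.0% ± 2.36 in WT (SD, n = 3 each).

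The test of these ratios was limma on log2(3p + 1) minus log2(5p + 1) over all 55 pairs of strands with a summed mean of at least 1 RPM. Unlike the plain ratio, this difference is not wholly free of library scaling, because of the added 1 RPM. It was not fitted under the other scalings. Of the 55 pairs, 21.8% passed as lower and 10.9% as higher in aar2-1, and 34.5% had all aar2-1 ratios below WT and 14.5% all above on this scale. Whichever strand had the higher mean RPM was relatively lower in aar2-1 in 40 of the 55 pairs, with a median log2 change of -0.34. This held for 12 of the 16 called pairs other than copper, with a median of -0.84 over the 16. The strand was chosen by its mean in these same libraries. The added 1 RPM also shrinks a fall more in the scarcer strand. Both counts therefore lean this way even where the strands fall alike, and no conclusion is drawn from them. With 0.1 RPM added, 10 pairs were called in place of 18. For miR396b, whose 5p strand is the more abundant, log2(3p/5p) changed by 2.43. The change for miR398b and miR398c was -1.36 with a 95% interval from -1.86 to -0.86 (limma adjusted p 0.00514), the lowest of the 55 pairs. The change for miR408 was -0.95 with an interval from -1.35 to -0.56 (limma adjusted p 0.00758), in place 7 from the lowest. Both passed in every fit that left out 1 library, with changes from -1.503 to -1.174 and from -1.04 to -0.82.

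The third hairpin did not show this. The ratio of miR398a was 18.1, 14.7 and 15.6 in aar2-1, against 16.8, 15.9 and 20.5 in WT, and these ratios overlapped. On the log2 scale with 1 RPM added they did not overlap, as for the other 2 copper hairpins, and the change was -0.48 with an interval from -0.97 to 0.02 (limma adjusted p 0.115). That value leans on the added 1 RPM, because the passenger strand lies near 1 RPM: with 0.1 RPM added the change was -0.18, and with 5 RPM added it was -0.78 and passed (limma adjusted p 0.0124). With 0.1 RPM added, the changes of miR398b and miR398c and of miR408 were -1.36 and -0.95 and passed (limma adjusted p 0.00951 and 0.0120). No 5p or 3p partner is listed for miR397a, miR397b or miR857.

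**Figure D4:**
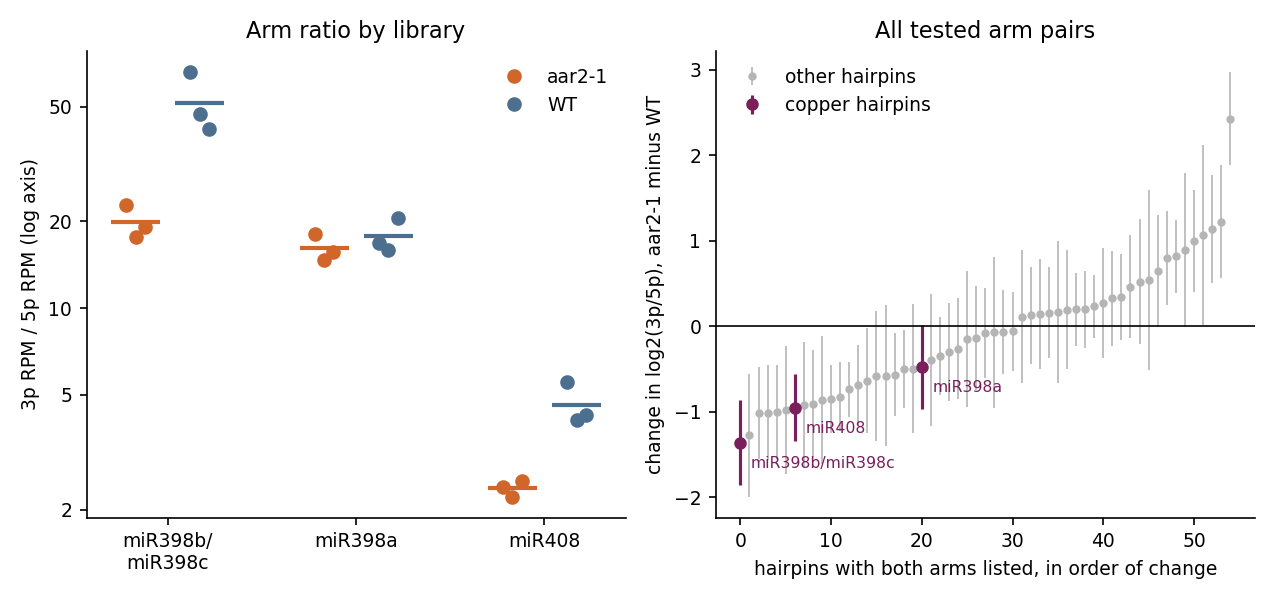
Left, the ratio of 3p to 5p RPM in each library on a log axis for the copper hairpins, with bars at the genotype means. Right, the change in log2(3p/5p), aar2-1 minus WT, with 95% intervals for all 55 tested pairs in order, with the copper hairpins in colour. The aar2-1 ratios of miR398b/miR398c and miR408 lie below all WT ratios, and those of miR398a overlap with WT.

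Summed by miR number, 2 of the 4 copper families passed as lower in aar2-1, where 59.2% of all 76 tested families did and 3.95% were higher. The same 2 copper families had all aar2-1 values below WT, as did 60.5% of all families, and 3.95% had all above. The miR398 family had 637 ± 151 RPM in aar2-1 and 1872 ± 429 RPM in WT (log2 change -1.56, SE 0.26, limma adjusted p 0.000379). The miR408 family had 219 ± 41.1 RPM in aar2-1 and 698 ± 81.5 RPM in WT (log2 change -1.68, SE 0.26, limma adjusted p 0.000265). Of all families, 23 were lower and 10 higher with the median ratio (30.3% and 13.2%) and 17 lower and 15 higher as shares (22.4% and 19.7%). Under the median-ratio and share scalings the changes were -0.73 and -0.48 for miR408, which passed in both, and -0.61 and -0.35 for miR398, which passed with the median ratio alone (limma adjusted p 0.0132 and 0.117). In descending order of RPM the families ran miR398, miR408, miR397 and miR857 in both genotypes, and miR397 and miR857 did not differ beyond their spread, at 5.42 ± 3.06 and 2.74 ± 1.80 RPM in aar2-1 and 8.56 ± 4.73 and 4.42 ± 0.508 RPM in WT.

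Ratios between families within a library asked whether the families fell by unequal amounts. With 1 RPM added to each family, the log2 ratio of miR408 to miR857 was 5.55, 5.81 and 6.57 in aar2-1, against 7.06, 7.10 and 6.86 in WT. The difference was -1.03 on average. On this scale this pair was the only one of the 6 family pairs without overlap (two-sided exact permutation p = 0.10, the smallest that 3 against 3 libraries allow, and 0.30 adjusted over the 6 pairs). The difference leaned on the added 1 RPM, because miR857 itself lay between 1.14 and 4.91 RPM. With 0.1 RPM added it was -0.81 (exact permutation, adjusted p 0.45), and with 5 RPM added it was -1.35 (exact permutation, adjusted p 0.15). The ratio of miR398 to miR408 was 1.58, 1.38 and 1.62 in aar2-1, against 1.58, 1.32 and 1.31 in WT, with a difference of 0.12 (exact permutation p = 0.30, adjusted p 0.36). The ratio of these 2 abundant families overlapped between genotypes and lay between 1.31 and 1.62 in all 6 libraries. The ratios of miR398 to miR397, miR398 to miR857 and miR408 to miR397 differed by -0.98, -0.91 and -1.10 with overlap (exact permutation p = 0.20 and adjusted p 0.30 for each). The ratio of miR397 to miR857 differed by 0.07 (exact permutation p = 0.70, adjusted p 0.70).

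Other nutrient miRNAs were lower as well. Of a list of miR395, which responds to sulphate, and miR399, miR778, miR827 and miR2111, which respond to phosphate, 4 families could be tested and 4 passed as lower, beside 2 of 4 copper families and 59.2% of all families. The miR399 family, which targets the ubiquitin conjugase PHO2, had 53.8 ± 19.4 RPM in aar2-1 and 258 ± 18.8 RPM in WT. The miR395 family, which targets ATP sulphurylases, had 144 ± 24.7 RPM in aar2-1 and 530.2 ± 79.1 RPM in WT. Their log2 changes were -2.29 and -1.88 (limma adjusted p 0.000112 and 0.000175), and the median of the 4 was -2.09, against -1.10 for the copper families and -0.86 for all families. All 4 also passed as lower under both scalings described above, with changes from -1.82 to -0.66, where 30.3% and 22.4% of all families did. No miR778 entry is listed. The miR2111 family had a mean under 1 RPM in aar2-1 and met the filter only because of its WT values. The nutrient list was also chosen with earlier results of these data known. No conclusion is therefore drawn from its share of lower calls or its median beside those of the copper families.

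Across the 6 libraries, the entries outside the group with the pattern most like miR408 were the joined miR166 guide (Pearson r = 0.999 on log2(RPM + 1)), the joined miR165 guide (r = 0.997) and miR162a-3p/miR162b-3p (r = 0.996). For miR398 they were miR165a-5p (r = 0.984), the joined miR166 guide (r = 0.982) and the joined miR165 guide (r = 0.979). For miR857 they were the joined miR160 guide (r = 0.993), miR403-5p (r = 0.990) and miR156a-3p (r = 0.978). For miR397 they were miR173-5p (r = 0.968), miR164a/miR164b-5p (r = 0.959) and miR167a-3p (r = 0.956). These are descriptions over 6 libraries from 64 candidate entries, and the difference between genotypes enters all of them.

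The regions upstream of the genes were searched for GTAC, the core of the motif bound by SPL7, which reads the same on both strands. The window ran from 250 bases before to 50 after the annotated start of each precursor, which need not be the start of transcription. GTAC occurred 5 times at MIR398b, 4 times at MIR408 and at MIR397b, 3 times at MIR398c and at MIR397a, and not at MIR398a or MIR857. The window of MIR857 lies partly in the MIR397b precursor. The 4 copies at MIR397b lie upstream of MIR857 too, past the edge of its window, so the count for MIR857 depends on where the window ends. Windows with at least 3 copies thus made up 5 of 7 copper precursors. They made up 7 (3.95%) of the precursors of all 177 listed miRNA genes, the copper ones included, and 2.15% of windows at all 37897 annotated genes. A single copy or more occurred in 31.1% and 39.7% of those. MIR398a, whose guide passed as lower in RPM as deposited alone, holds no copy in this window. MIR397b, whose scarce entry did not pass, holds 4. Whether copies of the motif go with the changes was not tested.

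The windows of MIR398c and MIR397b are shown because they hold the motif, overlap no other gene, and belong to a miRNA that passed as lower and to 1 that did not pass. GTAC is in capitals, and the sequences are from TAIR10.1 on the strand of the gene.
MIR398c, chr5:4694444-4694743, plus strand: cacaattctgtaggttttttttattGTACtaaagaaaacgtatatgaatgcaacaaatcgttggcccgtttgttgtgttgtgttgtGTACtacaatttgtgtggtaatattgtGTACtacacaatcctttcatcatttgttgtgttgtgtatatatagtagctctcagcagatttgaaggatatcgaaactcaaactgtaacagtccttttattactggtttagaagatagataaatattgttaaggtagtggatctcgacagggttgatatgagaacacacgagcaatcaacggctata
MIR397b, chr4:7878711-7879010, minus strand: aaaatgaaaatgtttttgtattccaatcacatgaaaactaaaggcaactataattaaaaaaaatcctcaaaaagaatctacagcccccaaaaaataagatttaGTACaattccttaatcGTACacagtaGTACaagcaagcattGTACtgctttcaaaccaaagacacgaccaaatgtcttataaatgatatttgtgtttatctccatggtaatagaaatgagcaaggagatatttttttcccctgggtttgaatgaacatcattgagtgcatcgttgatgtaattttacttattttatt

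The mRNA targets were not measured, and their sites are given to show what the guides that fell or did not pass are known to pair with. Each site is the stretch of the spliced mRNA with the best ungapped pairing to the guide, scored as 1 per mismatch and 0.5 per G:U pair, with the bases that form Watson-Crick pairs in capitals.
ARPN (plantacyanin) with miR408-3p, coding, chr2:827696-827716, minus strand: cCaAGGGAAGAGGCAGTGCAT
CSD1 with miR398b-3p, 5′ UTR, chr1:2827177-2827685 across an intron, plus strand: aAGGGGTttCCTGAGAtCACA
LAC2 with miR397b, coding, chr2:12526364-12526384, minus strand: aATCAAtGcTGCACTCAATGA
LAC7 with miR857, coding, chr3:2829996-2830397 across an intron, minus strand: AcACACCTTCAACgTACAAAA

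The penalty was 2 for ARPN, 4 for CSD1, 2.5 for LAC2 and 1.5 for LAC7. Among 31342 genes searched, 2, 9, 3 and 1 genes, these included, scored as well or better. The further laccase sites scored 3 for LAC4 and LAC17 with miR397b, and 3.5 to 4 for LAC3, LAC12 and LAC13 with miR408-3p. The best ungapped sites of CSD2 and CCS with miR398b-3p scored 6.5 and 5.5, which 12.2% and 1.57% of genes matched or bettered, so this search did not single them out.

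MIR397b and MIR857 are neighbours of miRNA genes whose products were close to 0 in aar2-1, at 0 to 12 reads per library, where miR397b and miR857 had 10 to 93. Listed miRNAs from precursors within 20 kb were MIR5996, MIR841a and MIR3932b, all on the same strand, with gaps of 4203, 6689 and 12008 bases from MIR857. The entry miR5996 had 2, 1 and 1 reads in aar2-1, against 111, 126 and 122 reads in WT. The entry miR3932b-5p had 12, 4 and 11 reads in aar2-1, against 680, 925 and 683 reads in WT, and its sequence matches the genome at 2 places. The miR841a-5p entry had 0 reads in all 3 aar2-1 libraries, against 7 reads in each WT library, and miR841a-3p had 0 reads in all 3, against 18, 13 and 11 reads in WT, and its sequence also matches at 2 places. Both miR5996 and miR3932b-5p passed as lower (limma adjusted p 8.54e-09 and 9.45e-10), while miR397b and miR857 did not pass. In aar2-1 the means of miR5996 and miR3932b-5p were under 1 RPM, so these entries met the filter only because of WT. Entries tested on that footing can only be lower in aar2-1, so no conclusion is drawn from their calls beside the copper pair. The difference between the neighbours and the copper pair was not tested.

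**Figure D5:**
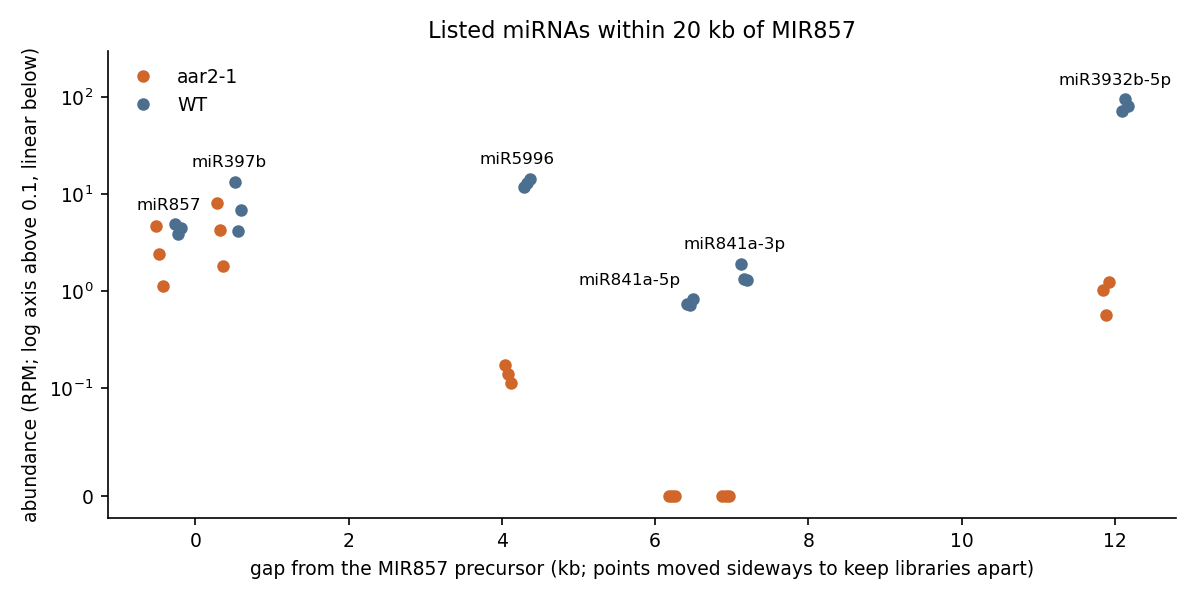
Abundance in RPM of the listed miRNAs whose precursors lie within 20 kb of MIR857, against the gap between the precursors in kb, with 1 point per library. The axis is logarithmic above 0.1 RPM and linear below it. At miR857 and miR397b the genotypes overlap, and from miR5996 onward every aar2-1 point lies far below the WT points, at 0 for both strands of miR841a.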

How the data were processed

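The data are 6 small RNA libraries of 14-day-old seedlings, made per the labels' protocols from TRI Reagent RNA with the NEBNext small RNA kit. Bowtie, cutadapt and the TAIR10 build are named in the submitters' processing notes without their roles, and versions are not given in the sources used here. The deposited tables list 197 entries per library, in which identical mature miRNAs are joined. Their unit is not stated; the deposited values were read as RPM, because all values of a library lie within 0.02 of whole multiples of its smallest value above 0, taken as 1 read. Each library's total and all read numbers given were inferred from that step, and what the authors counted in it is not given in the sources used here.

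From these values, limma 3.58.1 (R 4.3.3) was fitted on log2(RPM + 1) with a variance trend and genotype as the only term, for entries, for sums by miR number and for 3p minus 5p differences, each with a mean of at least 1 RPM. A joined entry of several numbers counted under its first. Adjustment was by Benjamini-Hochberg over all tested features, with a threshold of 0.05. The fit for entries was tested on simulated data, and the fits for sums and for strand differences were not. In the simulation rises and falls were drawn alike, whereas 122 of the 131 tested entries here had a negative change. Family ratios were compared with a two-sided exact permutation test written in Python 3.11.15, with the Benjamini-Hochberg adjustment from scipy 1.17.1. The design text calls the replicates biological. Depth was 7062198 to 11524176 reads per library, so 1 read was worth 0.0868 to 0.142 RPM.

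Every copper entry is named, and likeness was ranked over entries of at least 10 RPM. The members, the nutrient list, the targets and the motif were chosen with earlier results of these data known. Genome positions and sequences come from TAIR10.1 (RefSeq), matched by name, since the tables hold no coordinates. Alternatives were other added constants (0.1 and 5 RPM), other filters (none and 10 RPM), 2 other scalings, the replicate number as a block, and leaving out each library.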

Additional observations from a re-analysis of the deposited data

How the results depend on the processing

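Over all entries, 83 were called as deposited, 54 with the median ratio, 39 as shares of listed miRNA reads and 45 with a filter at 10 RPM, which tests fewer entries. Of the copper entries, 5 were called as deposited, 3 with the median ratio (2 lower and 1 higher) and 2 as shares (1 lower and 1 higher). Of all families, 48 were called, and 31 with the filter at 10 RPM. Of the copper families, 2 were called, and 1 as shares. Changes turned to above 0 with the median ratio for miR398b-5p/miR398c-5p (0.68), miR397b (0.068), miR857 (0.045, entry and family) and the miR397 family (0.23). As shares they did so for the same, at 0.93, 0.28, 0.25 and 0.45, and for miR398a-5p (0.037) and miR408-5p (0.25). The log2 change of the summed copper miRNAs was -1.58 in RPM and -0.38 as a share. With 0.1 RPM added, 10 arm ratios were called in place of 18. With 5 RPM added, the log2 ratio of miR397 to miR857 differed by -0.057 in place of 0.073. No cause of these shifts was tested beyond the construction named.

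Leaving out 1 library gave 62 to 109 called entries, 5 to 7 copper entries, 34 to 64 families, 2 to 4 copper families, 4 to 22 arm ratios and 2 copper arm ratios throughout. All 4 copper families were called without aar2-1 replicate 1, and 4 arm ratios without aar2-1 replicate 2 and 10 without WT replicate 3. The summed copper change then ran from -1.77 to -1.40, and the miR397 to miR857 difference from -0.19, without WT replicate 2, to 0.38.

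Same-numbered libraries deviated together with correlations of 0.49, 0.05 and -0.15, and 1 of 3 aar2-1 libraries correlated best with its own number. So few values cannot show whether same-numbered libraries shared a batch. With the replicate number as a block, 98 entries, 7 copper entries, 56 families, 3 copper families and 24 arm ratios were called, the added copper calls being miR397b (limma adjusted p 0.0299) and miR857 (limma adjusted p 0.0323). The planned tests for counts were not run: the tables hold scaled values, and too few of them were low enough for the inferred reads to meet the criterion for such tests. Depth limits miR397a, miR398a-5p, miR397b and miR857, and p-values from 3 libraries per genotype cover only their spread.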
